A study of Mus musculus with 31 samples.

Results

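A set of 10 macrophage genes was followed in mouse skin: Cd163, Fcgr1, Msr1, Itgam, Stab1, Cd209e, Mrc1, Csf1r, Il34 and Chil3. They are 10 of the 18193 genes that the array measured with at least 1 probe set of a single gene symbol. They were picked because their levels stood higher or lower in inhibitor-treated skin than in PBS-treated skin or than at the start, so the inhibitor differences given for them below are descriptions without a test. Where a gene had several probe sets, the one with the highest mean over all arrays was used, which concerned Fcgr1, Msr1 and Csf1r.

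The study treated C3H/HeJ mice with established disease, labelled AA and read here as alopecia areata, an autoimmune hair loss. C3H/HeJ is an inbred strain that carries a defective Tlr4 gene, the receptor for bacterial lipopolysaccharide, and that develops this disease on its own, and all groups share this background. The agents were topical and are known only by the names PBS (the buffer control), jak1i and jak3i, for inhibitors of Janus kinases, with no dose in the sources used here. Each arm had 3 arrays of whole skin at 0, 6 and 12 weeks, and jak1i and jak3i had 2 arrays each at 24 weeks, which makes 11 groups and 31 arrays. PBS at 24 weeks was not analysed here, and the age and sex of the mice are not given in the sources used here. By the design text the replicates are biological ones, with nothing on whether one mouse gave skin at several times.

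Macrophages of the skin live in the dermis and around hair follicles, where they take up dead cells, lipoproteins and antibody-coated particles. The receptor tyrosine kinase encoded by Csf1r keeps them alive in response to the growth factors Csf1 and Il34, and in skin Il34 is made largely by keratinocytes and sustains Langerhans cells. Fcgr1 encodes the high-affinity receptor for IgG and is a known target of interferon-γ, which signals through Janus kinases. Cd163, the haemoglobin scavenger receptor, Mrc1, the mannose receptor, Stab1 and the lectins of the Cd209 family are textbook markers of resident and alternatively activated macrophages, and Chil3 encodes the chitinase-like protein Ym1.

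Promoters of 7 of the 10 genes were in the RefSeq table of the reference strain (GRCm38.p6), each running from 250 bases before to 50 bases after the gene's start. They are shown for Fcgr1 and Chil3, which stood lower in jak1i-treated skin at 12 weeks, and for Cd163, which stood higher. Capitals mark the letters TTCNNNGAA, the core of a STAT site, and each sequence is written 5′ to 3′ on its gene's strand. The mice were C3H/HeJ, so their own sequence may differ.
Fcgr1, chr3:96293920-96294219, minus strand: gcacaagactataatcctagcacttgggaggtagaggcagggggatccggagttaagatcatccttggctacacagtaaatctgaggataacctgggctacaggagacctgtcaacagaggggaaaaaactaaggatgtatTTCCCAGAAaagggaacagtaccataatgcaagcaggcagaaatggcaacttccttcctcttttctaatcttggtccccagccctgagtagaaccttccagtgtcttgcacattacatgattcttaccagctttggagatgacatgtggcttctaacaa
Chil3, chr3:106167515-106167814, minus strand: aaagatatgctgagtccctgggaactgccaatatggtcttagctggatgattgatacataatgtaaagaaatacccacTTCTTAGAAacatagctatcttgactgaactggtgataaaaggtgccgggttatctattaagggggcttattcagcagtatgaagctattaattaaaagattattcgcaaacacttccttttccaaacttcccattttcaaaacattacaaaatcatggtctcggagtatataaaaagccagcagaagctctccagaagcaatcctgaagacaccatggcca
Cd163, chr6:124304401-124304700, plus strand: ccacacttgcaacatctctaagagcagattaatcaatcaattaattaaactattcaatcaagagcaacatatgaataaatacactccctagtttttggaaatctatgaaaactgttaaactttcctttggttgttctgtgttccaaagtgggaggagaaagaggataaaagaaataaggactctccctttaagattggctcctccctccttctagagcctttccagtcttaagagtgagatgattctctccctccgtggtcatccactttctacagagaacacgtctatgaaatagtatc

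The match in Fcgr1 reads TTCCCAGAA and begins at −109 from the start, at bases 142 to 150 of the sequence. The match in Chil3 reads TTCTTAGAA and begins at −172 from the start, at bases 79 to 87. The same letters, which are their own reverse complement, stand in 8.3% of all 32851 promoters of the table. The promoters of Cd163, Itgam, Stab1, Cd209e and Mrc1 held no such match. The interferon response element (3.44% of all promoters), the PU.1 motif GAGGAAGT (3.2%), the AP-1 motif TGACTCA (5.2%) and the glucocorticoid response element (0.00913%) were searched on both strands and stood in none of the 7. These are letters in a window and say nothing of binding. In GRCm38.p6, Fcgr1 spans chr3:96282909-96293969, Chil3 spans chr3:106147554-106167564 and Cd163 spans chr6:124304636-124330529. Itgam lies on chromosome 7, Stab1 on 14, Mrc1 on 2, Csf1r on 18, and Msr1, Cd209e and Il34 on 8.

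The 3 arrays of PBS at 12 weeks stood apart from all others in 1 respect that bears on every comparison with them. The mean of 12 skeletal muscle genes, relative to the mean over all arrays, was −5.99, −2.67 and −4.22 on the log2 scale there and between −0.60 and 1.54 in each of the other arrays. The list's brightest gene was Acta1 and its dimmest Actn3, both contractile proteins of muscle. Mouse back skin carries a thin sheet of muscle beneath the fat. Differences of the 10 genes and of the Cd209 genes from PBS at 12 weeks are therefore given also against PBS at 6 weeks. For the other named genes that passed the test, except Pdcd1lg2 and Vcam1, this is done where the size moved by over 1.5 times. The keratinocyte list, with Krt10 at a mean of 14.20, stayed between −0.59 and 0.30 in all arrays, and skin genes were thus at high levels in every group.

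**Figure D1:**
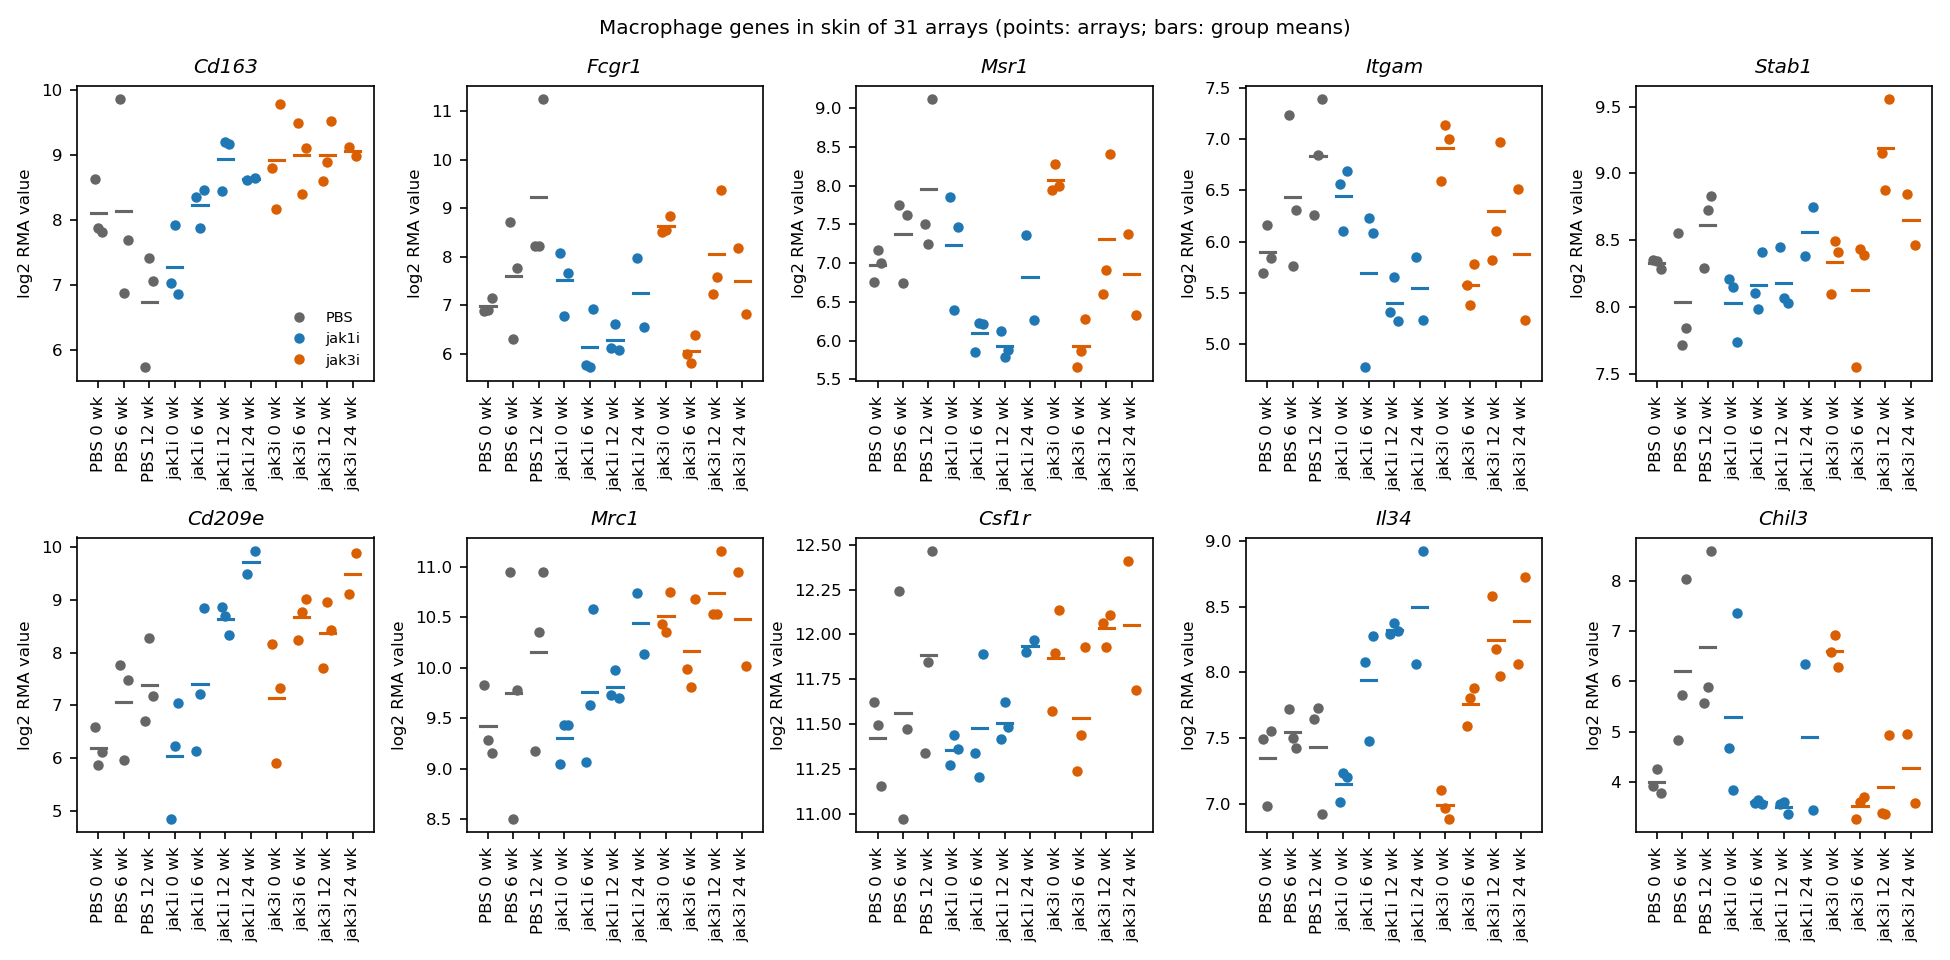
Log2 RMA value (vertical axis) of each of the 10 genes in every array, grouped by arm and weeks (horizontal axis). Points are arrays and bars are group means. Fcgr1, Msr1 and Itgam reached their highest value in the same array of PBS at 12 weeks, and Chil3 was below 4 in all jak1i and jak3i arrays at 6 weeks.

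Fcgr1, Msr1 and Itgam were receptors with lower means under both inhibitors than in PBS at 12 weeks, as was Chil3, given below. Under jak3i the arrays of the 3 receptors overlapped those of PBS. Fcgr1 was at 8.22, 8.21 and 11.25 in the 3 arrays of PBS at 12 weeks, at 6.13, 6.62 and 6.09 under jak1i and at 7.24, 7.59 and 9.37 under jak3i. Every jak1i array was below every PBS array, while jak3i overlapped PBS because 1 of its arrays was high. Over all genes the groups did not overlap in 36.2% for jak1i and in 38.3% for jak3i at 12 weeks. The difference from PBS was −2.95 (SE 0.69), a 7.73-fold lower level, under jak1i and −1.16 (SE 0.69) under jak3i, from the limma fit of all 11 groups. In bulk skin, fewer cells of a type and less RNA per cell cannot be told apart. All values and differences are on the log2 scale unless a fold is named.

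Msr1, a class A scavenger receptor for modified lipoproteins, was at 7.50, 7.25 and 9.12 in PBS at 12 weeks, at 6.13, 5.79 and 5.88 under jak1i and at 6.60, 6.91 and 8.42 under jak3i. In PBS and under jak3i the array that was highest for Fcgr1 was also highest for Msr1. Itgam, the alpha chain of complement receptor 3 on myeloid cells, was at 6.26, 6.85 and 7.39 in PBS, at 5.32, 5.66 and 5.23 under jak1i and at 5.82, 6.10 and 6.97 under jak3i. Under jak1i the difference from PBS was −2.02 (SE 0.47) for Msr1 and −1.43 (SE 0.40) for Itgam, with no overlap of the groups. Under jak3i it was −0.65 for Msr1 and −0.53 for Itgam, and the groups overlapped. The other 3 probe sets of Msr1 gave −1.91, −1.22 and −1.40 under jak1i, and the second probe set of Fcgr1 gave −1.03.

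At 6 weeks these receptors were low in both inhibitor arms. Fcgr1 was at 5.77, 5.72 and 6.94 under jak1i and at 6.01, 5.81 and 6.39 under jak3i, against 8.71, 6.31 and 7.77 in PBS. The second PBS array was low, so the groups overlapped. Msr1 was at 5.85, 6.23 and 6.21 under jak1i and at 5.66, 5.86 and 6.28 under jak3i, all below the PBS values of 7.75, 6.75 and 7.63. Itgam was at 4.78, 6.23 and 6.08 under jak1i and at 5.58, 5.39 and 5.78 under jak3i, against 7.23, 5.76 and 6.31 in PBS, and it overlapped PBS in both. Over all genes 18.5% did not overlap between jak1i and PBS at 6 weeks, and 15.6% between jak3i and PBS. The second PBS array at 6 weeks was also the lowest of its group for the pan-macrophage list, at −0.84 against 0.76 and 0.10, and for the fibroblast list, at −1.62 against 0.50 and −0.22.

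Against the start of each arm, Fcgr1 differed by −2.57 and Msr1 by −2.14 at 6 weeks of jak3i, where the arrays at 0 weeks had been high (Fcgr1 8.52, 8.56 and 8.85). By 12 weeks of jak3i the difference from the start was −0.57 for Fcgr1 and −0.77 for Msr1, with overlap. Under jak1i Fcgr1 was at 8.09, 6.79 and 7.67 at 0 weeks and the difference was −1.37 at 6 weeks and −1.24 at 12 weeks, the latter without overlap. From the start of the arm, 27.1% of all genes did not overlap at 6 weeks, 40.1% at 12 weeks and 37.8% at 24 weeks under jak1i, and 19.6%, 38.9% and 33.6% under jak3i. All jak1i arrays at 6 and 12 weeks lay below 7 for Fcgr1, whereas all jak3i arrays at 12 weeks were above all jak3i arrays at 6 weeks.

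At 24 weeks the 2 arrays of each inhibitor arm split. Fcgr1 was at 7.97 and 6.56 under jak1i and at 8.17 and 6.81 under jak3i. Msr1 was at 7.37 and 6.26 and at 7.38 and 6.34, and Itgam at 5.86 and 5.24 and at 6.52 and 5.24. The first array was the higher of the pair for all 3 genes in both arms. In the same arrays the T and NK cell list was at 0.20 and −0.76 under jak1i and at 0.82 and −0.46 under jak3i, and the hair shaft list at 0.91 and −3.51 and at 0.36 and −2.86. The part of these lists in the split was not tested.

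Chil3, made by alternatively activated macrophages and by neutrophils, had the widest spread between arrays of a group (residual SD 1.12). It was at 5.57, 5.89 and 8.59 in PBS at 12 weeks, at 3.55, 3.59 and 3.37 under jak1i and at 3.39, 3.37 and 4.94 under jak3i. At 6 weeks it was at 4.84, 5.73 and 8.03 in PBS, at 3.58, 3.65 and 3.55 under jak1i and at 3.27, 3.61 and 3.70 under jak3i. All inhibitor arrays were below all PBS arrays at both times, and most lay close to the lowest values of the gene. The difference from PBS at 12 weeks was −3.18 (SE 0.86) under jak1i and −2.78 (SE 0.86) under jak3i, and at 6 weeks it was −2.61 and −2.68. Without the third PBS array at 6 weeks the latter came to −1.69 and −1.76. Of all probe sets on their arrays, 2.86% to 8.59% read lower than Chil3 in the inhibitor arms at 6 weeks and 4.41% to 7.99% under jak1i at 12 weeks. Whether such values are above background is not known here, so the sizes of these differences may be lower bounds.

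PBS skin at 0 weeks was itself low for Chil3, at 3.93, 4.27 and 3.79, while jak3i skin at 0 weeks was at 6.58, 6.93 and 6.28 and jak1i skin at 4.67, 3.84 and 7.36. From the start, the difference under jak1i was −1.69 at 6 weeks and −1.78 at 12 weeks, and without the third jak1i array at 0 weeks it was −0.66 and −0.75. At 24 weeks the first array was again the higher of the pair, at 6.35 and 3.45 under jak1i and at 4.95 and 3.59 under jak3i. Chil3 values of inhibitor-treated skin at 6 and 12 weeks were below 4.27, the highest PBS value at 0 weeks, in all arrays except 1 jak3i array at 12 weeks (4.94). The neutrophil list (10 genes, S100a8 highest and Elane lowest) ranged from 0.21 to 0.75 in PBS at 12 weeks, from −0.76 to −0.55 under jak1i and from −0.32 to 1.05 under jak3i. Its part in the Chil3 values was not tested.

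Cd163 and Cd209e were the receptors that were higher under the inhibitors. Cd163 was at 5.74, 7.41 and 7.06 in PBS at 12 weeks, at 8.45, 9.19 and 9.17 under jak1i and at 8.59, 8.89 and 9.52 under jak3i. The groups did not overlap, and the first PBS array held the lowest Cd163 value of all 31 arrays. The difference from PBS was 2.20 (SE 0.55) under jak1i, 4.59-fold, and 2.26 (SE 0.55) under jak3i, 4.81-fold. Against PBS at 6 weeks, with values of 9.85, 6.87 and 7.69, it was 0.80 under jak1i and 0.86 under jak3i. With the mean of the muscle list as a covariate the 2 differences turned to −0.70 and −0.62, and muscle content and the PBS group at 12 weeks cannot be told apart, since its 3 arrays alone had low muscle values.

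At 0 weeks every jak3i array was above every jak1i array for Cd163. jak3i skin was at 8.79, 8.17 and 9.79 at 0 weeks and at 9.49, 8.40 and 9.10 at 6 weeks, and its level at 12 weeks differed from its start by 0.09. jak1i skin was at 7.03, 7.92 and 6.87 at 0 weeks, at 8.36, 7.88 and 8.46 at 6 weeks and at 8.61 and 8.65 at 24 weeks, and its difference from the start was 1.66 (SE 0.55) at 12 weeks without overlap. PBS skin was at 8.62, 7.88 and 7.82 at 0 weeks. The level of Cd163 at 12 weeks lay between 8.45 and 9.52 in both inhibitor arms.

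Cd209e, a C-type lectin related to the dendritic cell receptor DC-SIGN, was at 6.69, 8.28 and 7.17 in PBS at 12 weeks, at 8.86, 8.70 and 8.34 under jak1i and at 7.70, 8.95 and 8.43 under jak3i. All jak1i arrays were above all PBS arrays, and jak3i overlapped PBS. The difference was 1.25 under jak1i and 0.98 under jak3i, and against PBS at 6 weeks it was 1.56 and 1.29. With the muscle list as covariate it turned to −0.05 and −0.32. At 6 weeks Cd209e was at 8.23, 8.78 and 9.02 under jak3i, at 6.13, 7.22 and 8.85 under jak1i and at 7.76, 5.97 and 7.48 in PBS. The highest values came at 24 weeks, 9.50 and 9.93 under jak1i and 9.10 and 9.89 under jak3i. From the start, where jak1i was at 4.85, 6.23 and 7.04 and jak3i at 8.17, 5.90 and 7.33, the difference at 24 weeks was 3.67 (SE 0.72) under jak1i and 2.37 (SE 0.72) under jak3i. Both 24-week groups stood above all arrays of their own arm at 0, 6 and 12 weeks.

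The neighbours of Cd209e on chromosome 8, which lie between positions 3743395 and 4137707, were not used to choose the set. At 12 weeks against PBS, limma called Cd209b (2.43, adjusted p = 0.00846) and Cd209c (0.79, adjusted p = 0.00352) higher under jak1i. Under jak3i all 6 measured neighbours were called higher, namely Cd209a by 1.69, Cd209b by 2.83, Cd209c by 0.89, Cd209d by 2.16, Cd209f by 2.68 and Cd209g by 2.48, with adjusted p from 0.00132 to 0.0173. Under jak1i the differences of Cd209a (1.30, adjusted p = 0.0607), Cd209d (1.54, adjusted p = 0.0654), Cd209f (1.36, adjusted p = 0.17) and Cd209g (1.40, adjusted p = 0.11) did not pass. With PBS at 6 weeks as the control only Cd209c passed, by 0.85 (adjusted p = 0.0265) under jak1i and 0.94 (adjusted p = 0.0058) under jak3i. The other neighbours then differed under jak3i by 1.65 for Cd209a, 1.65 for Cd209b, 1.73 for Cd209d, 1.58 for Cd209f and 1.56 for Cd209g, with adjusted p from 0.0542 to 0.151. Under jak1i they differed by 1.26, 1.25, 1.12, 0.26 and 0.48 in the same order, with adjusted p from 0.181 to 0.879. With the muscle list as covariate the differences from PBS at 12 weeks turned negative in both arms for Cd209a, Cd209d, Cd209f and Cd209g. Under jak1i that of Cd209b then came to 0.17, while that of Cd209c was 0.88. The comparisons at 12 weeks share the PBS arrays, and the family's genes are alike in sequence, so a probe set may also read a neighbour's transcript, which was not tested.

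**Figure D2:**
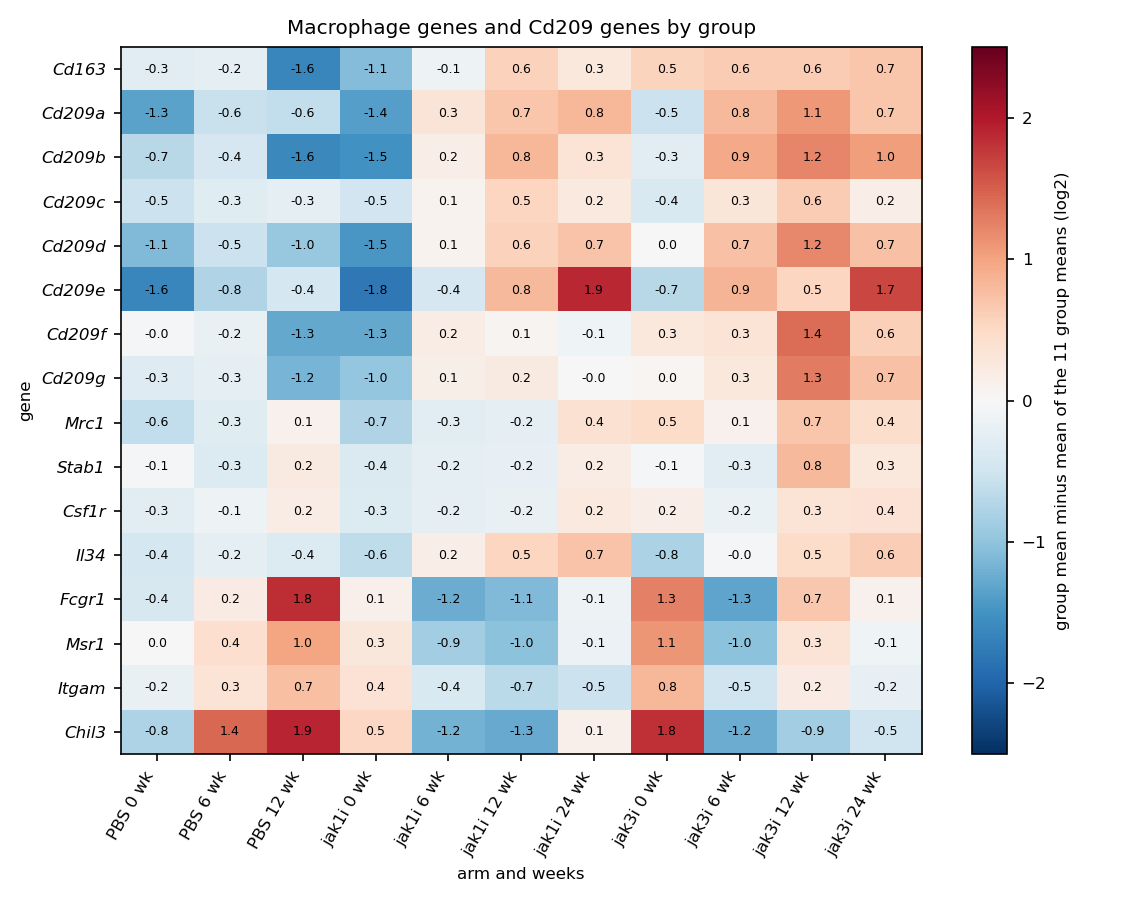
Group means of the 10 genes and of the Cd209 genes (rows), each minus the mean of its 11 group means (log2 colour scale, value printed in each cell), by arm and weeks (columns). Cd209b, Cd209f and Cd209g were low in PBS at 12 weeks as Cd163 was, whereas Fcgr1, Msr1, Itgam and Chil3 were high there and low in both inhibitor arms at 6 weeks.

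Mrc1 and Stab1 differed less from PBS. Mrc1 was at 9.17, 10.35 and 10.95 in PBS at 12 weeks, at 9.73, 9.98 and 9.70 under jak1i and at 10.53, 10.54 and 11.16 under jak3i, and both arms overlapped PBS. Its difference was −0.35 (SE 0.48) under jak1i and 0.58 (SE 0.48) under jak3i. Stab1, a scavenger receptor of macrophages and sinusoidal endothelium, was at 9.15, 8.87 and 9.55 under jak3i at 12 weeks, above the PBS values of 8.29, 8.73 and 8.83 by 0.58 (SE 0.24) without overlap. Under jak1i it was at 8.45, 8.07 and 8.03, a difference of −0.43. Mrc1 differed from PBS at 6 weeks by 0.06 under jak1i and by 0.998 under jak3i, and Stab1 by 0.14 and 1.16, so that both signs under jak1i turned. With the muscle list as covariate the jak3i differences from PBS at 12 weeks turned, to −1.26 for Mrc1 and −0.06 for Stab1. Over all 31 arrays Mrc1 ran from 8.50, in the second PBS array at 6 weeks, to 11.16 and Stab1 from 7.55, in the first jak3i array at 6 weeks, to 9.55. The 3 jak3i arrays at 12 weeks had the highest Stab1 values of all 31 arrays. In the same arrays the endothelial list (8 genes) was at 0.67 to 1.19, against −0.40 to 0.10 in PBS and −0.02 to 0.61 under jak1i at 12 weeks, and its part was not tested.

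The growth factor axis was represented by a receptor and a ligand. Csf1r varied over a range of 1.49 across the 31 arrays, and was at 11.34, 11.85 and 12.47 in PBS at 12 weeks, at 11.42, 11.62 and 11.48 under jak1i and at 12.06, 11.93 and 12.11 under jak3i. Its difference from PBS was −0.38 (SE 0.28) under jak1i and 0.15 (SE 0.28) under jak3i. From PBS at 6 weeks it was −0.05 and 0.47, and with the muscle list as covariate the jak3i difference from PBS at 12 weeks turned to −0.76. The other 2 probe sets of Csf1r gave −0.45 and −0.46 under jak1i, and 0.05 and −0.06 under jak3i. Both inhibitor arms overlapped PBS at 12 weeks for this receptor, which marks macrophages as a class.

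Il34 was higher in both inhibitor arms from 6 weeks on than at the start of the same arm, in every array. It was at 7.65, 7.73 and 6.92 in PBS at 12 weeks, at 8.29, 8.37 and 8.31 under jak1i and at 8.58, 8.18 and 7.97 under jak3i, with a difference from PBS of 0.89 (SE 0.24) and 0.81 (SE 0.24). All inhibitor arrays were above all PBS arrays. At 0 weeks it was at 7.49, 6.98 and 7.56 in PBS, at 7.01, 7.23 and 7.21 in jak1i skin and at 7.10, 6.97 and 6.89 in jak3i skin, and at 6 weeks it was at 8.07, 7.48 and 8.27 under jak1i and at 7.59, 7.80 and 7.88 under jak3i, against 7.72, 7.50 and 7.42 in PBS, which both arms overlapped. At 24 weeks it was at 8.07 and 8.92 under jak1i and at 8.06 and 8.73 under jak3i, which were 1.35 and 1.41 above the start. Against PBS at 6 weeks the differences at 12 weeks were 0.78 under jak1i and 0.69 under jak3i. The Langerhans cell list (6 genes, Epcam highest and Cd207 lowest) was at 0.15 to 0.25 in PBS, −0.20 to 0.09 under jak1i and −0.27 to −0.05 under jak3i at 12 weeks.

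**Figure D3:**
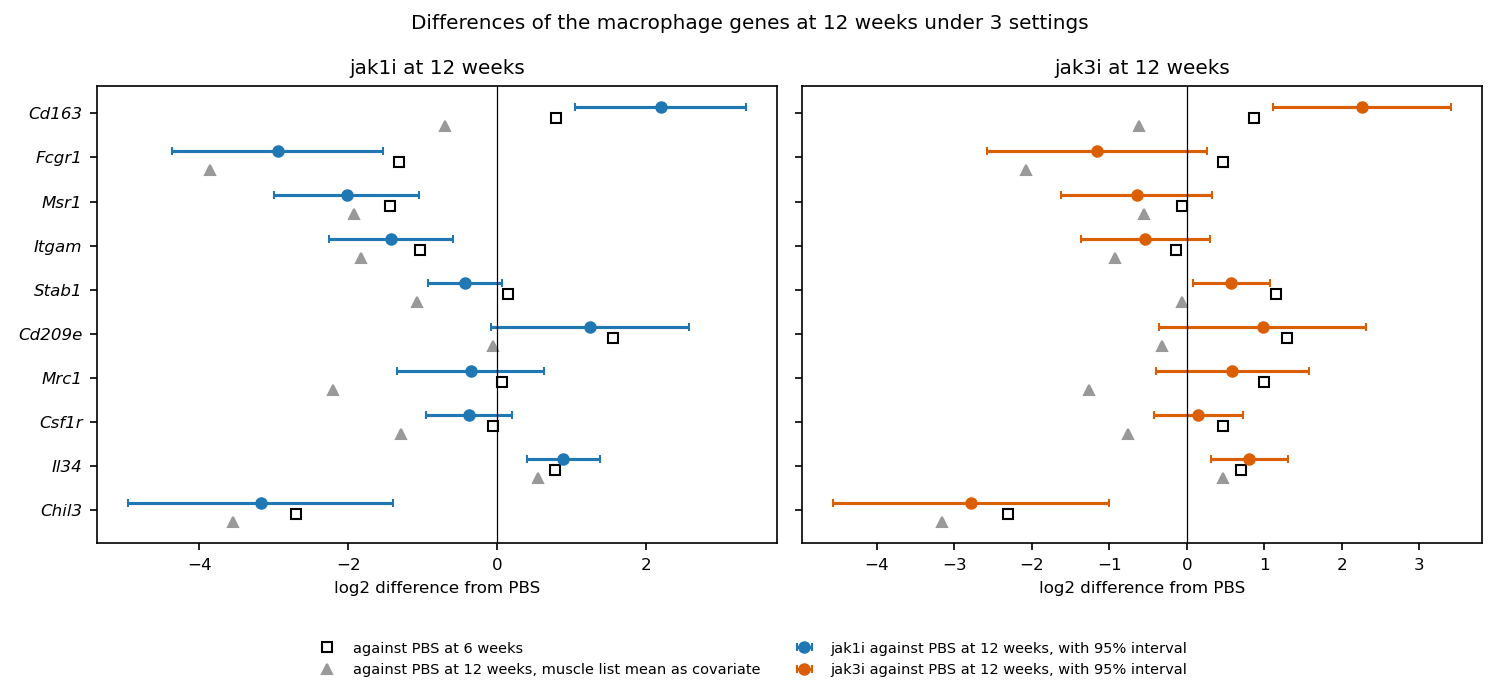
Log2 difference of jak1i (left) and jak3i (right) at 12 weeks from PBS for each gene. Filled circles are differences from PBS at 12 weeks with 95% intervals, open squares are differences from PBS at 6 weeks, and triangles add the muscle list mean as a covariate. The sign was the same in all 3 settings for Msr1, Itgam, Il34 and Chil3 in both arms and for Fcgr1 and Csf1r under jak1i. With the covariate it turned for Cd163 and Cd209e in both arms and for Mrc1, Stab1 and Csf1r under jak3i, and against PBS at 6 weeks for Mrc1 and Stab1 under jak1i and for Fcgr1 under jak3i.

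Counted over the 10 genes, 3 stood higher and 4 lower in every array of jak1i than in every array of PBS at 12 weeks, and 3 stood higher and 1 lower under jak3i, where 36.2% and 38.3% of all genes did not overlap. At 6 weeks 2 stood lower and 0 higher under jak1i (18.5% of all genes), and 1 higher and 2 lower under jak3i (15.6%). Against the start of the arm, the groups were apart for 3, 8 and 7 of the 10 genes at 6, 12 and 24 weeks of jak1i, and for 6, 3 and 6 of them under jak3i. These contrasts were among those that chose the genes, so nothing is read from the counts. The median difference of the 10 genes at 12 weeks was −0.41 under jak1i and 0.36 under jak3i, beside a median of −0.03 over all genes in each.

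The size of the differences at 12 weeks depended on single arrays. Without the third PBS array the difference under jak1i was −1.94 for Fcgr1, −1.44 for Msr1, −1.15 for Itgam and −2.22 for Chil3, and under jak3i it was −0.15 for Fcgr1, −0.07 for Msr1 and −1.83 for Chil3. The third PBS array was the highest of all 31 for Fcgr1, Msr1, Itgam, Csf1r and Chil3, and its pan-macrophage list mean was 1.35, against 0.03 and 0.53 in the other 2 of its group. With PBS at 6 weeks as the control, the difference at 12 weeks of jak1i was −1.32 for Fcgr1, −1.44 for Msr1, −1.03 for Itgam and −2.70 for Chil3. At 12 weeks of jak3i it was 0.47 for Fcgr1, −0.07 for Msr1, −0.13 for Itgam and −2.30 for Chil3, so that the sign for Fcgr1 turned.

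The comparisons that did not choose the genes could be tested, though they share arrays with those that did. In PBS skin from 0 to 12 weeks, limma called 0 of the 10 genes, where 2.28% of all genes were called, and 5 had an unadjusted p under 0.05. The share of all genes under that unadjusted limit was not counted, so nothing is read from such counts here or below. Fcgr1 was higher by 2.24 (95% interval 0.82 to 3.66, adjusted p = 0.091) and Chil3 by 2.69 (0.91 to 4.47, adjusted p = 0.106), without overlap of the groups. Msr1 differed by 0.98 (adjusted p = 0.304), Itgam by 0.93 (adjusted p = 0.248) and Cd209e by 1.19 (adjusted p = 0.37), and the groups did not overlap either. Cd163 differed by −1.37 (−2.52 to −0.22, adjusted p = 0.215). In all, 5 genes stood higher and 1 lower in every array, where 23.9% of all genes had groups that did not overlap. With the replicate number as a block Fcgr1 passed (adjusted p = 0.0456). Without the third PBS array at 12 weeks the difference was 1.23 for Fcgr1, 1.73 for Chil3 and 0.40 for Msr1, and without the first it was −0.87 for Cd163. Between 0 and 6 weeks of PBS 0 of the 10 were called (0.0055% of all genes), 1 had an unadjusted p under 0.05, and Chil3 differed by 2.21 without overlap (adjusted p = 0.422; 1.29 without the third PBS array at 6 weeks), where 17.1% of all genes did not overlap. Between 6 and 12 weeks of PBS 0 of the 10 were called (0.401% of all genes) and 3 had an unadjusted p under 0.05, namely Cd163 (−1.40, adjusted p = 0.513), Fcgr1 (1.63, adjusted p = 0.558) and Stab1 (0.58, adjusted p = 0.539). In none of the 10 were these groups apart, where 12.8% of all genes were.

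At 0 weeks, before treatment, 5 of the genes stood higher in jak3i skin without passing the test. jak3i skin at 0 weeks was above PBS skin at 0 weeks in every array for Chil3 (2.60, adjusted p = 0.518), Fcgr1 (1.65, adjusted p = 0.627), Msr1 (1.09, adjusted p = 0.636), Mrc1 (1.09, adjusted p = 0.636) and Itgam (1.01, adjusted p = 0.606). None passed in limma, where 0% of all genes were called, and these 5 had an unadjusted p under 0.05. Groups did not overlap in 15.3% of all genes. In a fit of only these arrays Fcgr1 and Chil3 passed (adjusted p = 0.0307 each). Between jak1i and PBS at 0 weeks 0 of the 10 were called (0% of all genes), 0 had an unadjusted p under 0.05, and only Stab1 (−0.30) stood apart, where 12.2% of all genes did. The pan-macrophage list was at 0.30 to 0.64 in jak3i skin at 0 weeks, −0.13 to −0.03 in PBS and −0.22 to 0.11 in jak1i skin.

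The 2 inhibitors were compared at the 3 matched times over all 10 genes, with p-values adjusted over all genes. At 12 weeks the level under jak1i was below that under jak3i in every array for 6 genes, where 15.8% of all genes did not overlap, but limma called 0 of them and 0% of all genes, while 4 had an unadjusted p under 0.05. The difference, jak1i minus jak3i, was −1.01 for Stab1 (95% interval −1.51 to −0.52, adjusted p = 0.554), −1.79 for Fcgr1 (−3.21 to −0.37, adjusted p = 0.771) and −1.37 for Msr1 (−2.34 to −0.40, adjusted p = 0.693). It was −0.90 for Itgam (−1.73 to −0.06), −0.94 for Mrc1 (−1.92 to 0.05) and −0.53 for Csf1r (−1.11 to 0.05), with adjusted p from 0.789 to 0.888.

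The genes that were higher under both inhibitors at 12 weeks showed no detectable difference between them. It was −0.07 for Cd163 (−1.21 to 1.08) and 0.08 for Il34 (−0.41 to 0.58), with adjusted p = 0.998 for both. At 6 weeks 0 genes were called (0% of all genes, 0 of the 10 at an unadjusted p under 0.05), and the widest difference was −1.28 for Cd209e (−2.61 to 0.06, adjusted p = 1). All 10 overlapped between the arms, where 4.76% of all genes did not. At 24 weeks, with 2 arrays an arm, 0 were called (0% of all genes, 0 at an unadjusted p under 0.05). Only Cd163 stood apart, at −0.42 (−1.82 to 0.99), where 19.8% of all genes did.

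From 12 to 24 weeks limma called 0 of the 10 genes in the jak1i arm (0% of all genes) and 0 in the jak3i arm (0.033%), and 0 had an unadjusted p under 0.05 in either. Cd209e was higher at 24 weeks in every array of both arms, by 1.08 (−0.41 to 2.57) under jak1i and by 1.13 (−0.36 to 2.63) under jak3i. Msr1 (0.88), Mrc1 (0.63) and Csf1r (0.43) also stood higher without overlap under jak1i, where 21.5% of all genes did not overlap. Under jak3i Stab1 differed by −0.54 without overlap, where 23.9% of all genes did not.

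Ordered by group mean, Fcgr1 ran from 9.23 in PBS at 12 weeks and 8.64 in jak3i skin at 0 weeks down to 6.28, 6.14 and 6.07 in jak1i at 12 and 6 weeks and jak3i at 6 weeks, and the only neighbours whose arrays did not overlap were PBS at 0 weeks (6.99) and jak1i at 12 weeks. Msr1 ran from 8.07 in jak3i skin at 0 weeks to 5.93 in jak3i at 6 weeks, and Itgam from 6.91 to 5.40, with 1 and 0 pairs of neighbours apart. Cd163 ran from 9.05 in jak3i at 24 weeks to 6.74 in PBS at 12 weeks, with 1 pair of neighbours apart. Il34 ran from 8.49 in jak1i at 24 weeks to 6.99 in jak3i at 0 weeks with every inhibitor-treated group mean above those of PBS and of 0 weeks, although no neighbours were apart. Cd209e ran from 9.71 to 6.04, and Stab1 from 9.19 in jak3i at 12 weeks, apart from the next, to 8.03.

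Within groups some pairs of the genes varied together. Deviations of the 31 arrays from their group means were compared for all 45 pairs of genes, with 10000 permutations within groups, two-sided, and Benjamini-Hochberg adjustment over the pairs. The pairs share the same arrays and were chosen with the group differences known. In 14 pairs the adjusted p for Pearson's r was under 0.05, 12 of them positive. The share among pairs drawn from all genes was not computed, so the count is not read as particular to these genes. Fcgr1 and Msr1 had r = 0.90 (rho 0.85, permutation p = 0.0002 and 0.0008, adjusted p = 0.003 and 0.009), and r = 0.85 without the 2 arrays farthest from the median of Fcgr1. Mrc1 and Csf1r also had r = 0.90 (rho 0.80, permutation p = 0.0002 and 0.0003, adjusted p = 0.003 and 0.0045, r = 0.85 without 2 arrays). The other positive pairs that passed joined these genes to each other and to Itgam. Fcgr1 had r = 0.77 with Itgam, 0.76 with Mrc1 and 0.70 with Csf1r, and Itgam had r = 0.75 with Msr1, 0.78 with Mrc1 and 0.66 with Csf1r. The rest were Msr1 with Chil3 (0.68), Stab1 with Csf1r (0.70) and Cd163 with Csf1r (0.67) and with Mrc1. Over these 10 pairs rho was 0.58 to 0.80, with permutation p from 0.0001, the smallest these permutations can give, to 0.014. The adjusted p was 0.003 to 0.045 for r and 0.0045 to 0.0409 for rho, and r was 0.48 to 0.75 without 2 arrays.

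Cd163 varied with Mrc1 (r = 0.74, rho 0.63, permutation p = 0.002 and 0.0016, adjusted p = 0.0112 and 0.0103, r = 0.56 without 2 arrays), and with Chil3 the values were near 0 (r = −0.18, rho −0.18, permutation p = 0.561 and 0.422, adjusted p = 0.659 and 0.554, r = −0.10 without 2 arrays). Il34 varied opposite to Msr1, with r = −0.65 (rho −0.58, permutation p = 0.0062 and 0.0167, adjusted p = 0.0279 and 0.0537, r = −0.55 without 2 arrays). It also varied opposite to Chil3, with r = −0.59 (rho −0.57, permutation p = 0.0092 and 0.0158, adjusted p = 0.0376 and 0.0537, r = −0.55 without 2 arrays). For both pairs with Il34 the adjusted p for rho missed 0.05. As descriptions, the within-group r of Cd163 with the mean of the fibroblast list was 0.82 and that of Itgam with the pan-macrophage list 0.93. That of Il34 was −0.652 with the T and NK cell list, −0.647 with the hair shaft list and −0.591 with the classically activated list.

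**Figure D4:**
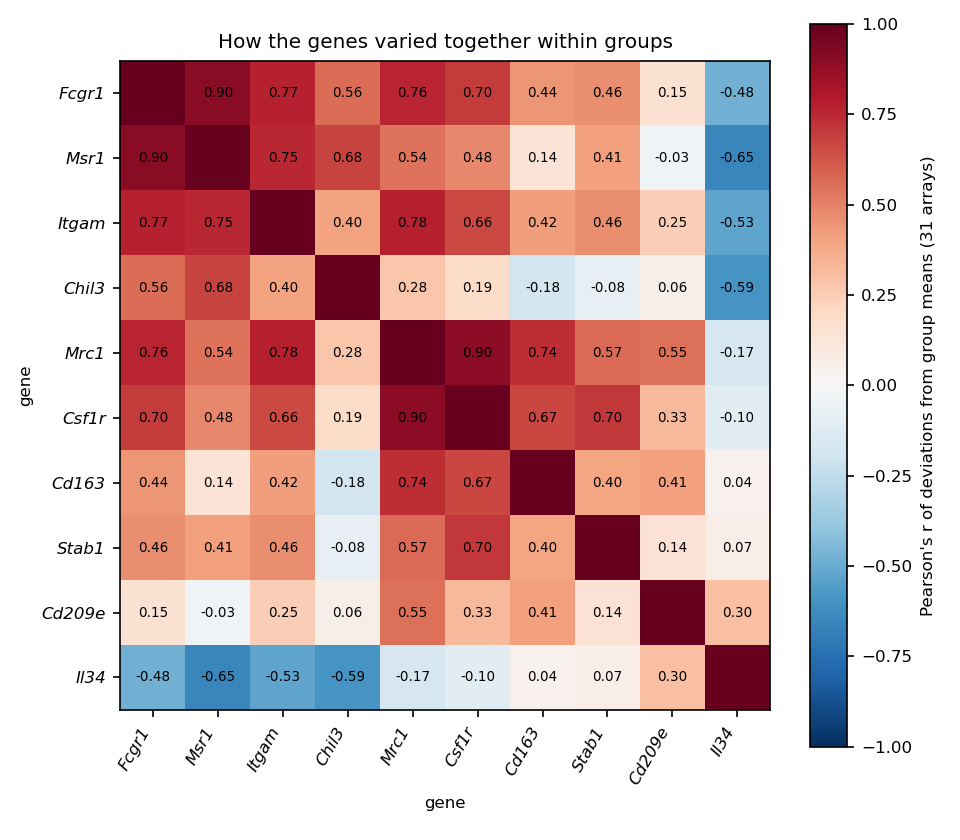
Pearson's r between the genes' deviations from their group means over 31 arrays (colour scale from −1 to 1, value in each cell). Fcgr1, Msr1 and Itgam have r from 0.75 to 0.90 with each other, Mrc1 and Csf1r share r = 0.90, Itgam with Mrc1 has r = 0.78, and Il34 has negative values with Fcgr1, Msr1, Itgam and Chil3.

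The genes whose levels over all 31 arrays were most like each member were named by the 3 highest Pearson r among all other genes. For Cd163 they were 3 Cd209 lectins, Cd209b (r = 0.90, rho 0.89), Cd209g (r = 0.89, rho 0.87) and Cd209f (r = 0.89, rho 0.85). For Fcgr1 they were the tripartite-motif gene Trim30d (r = 0.95, rho 0.95), Lst1 (r = 0.95, rho 0.94) and Msr1 (r = 0.94, rho 0.93). For Chil3 they were the eotaxin gene Ccl24 (r = 0.92, rho 0.92), the coagulation factor gene F10 (r = 0.91, rho 0.90) and the receptor gene Gpr35 (r = 0.91, rho 0.89). For Il34 they were Gal3st1, a sulfotransferase gene (r = 0.93, rho 0.93), Rgmb, a co-receptor for bone morphogenetic proteins (r = 0.93, rho 0.93), and Srgap2 (r = 0.93, rho 0.94). These are descriptions across arrays that include the group differences.

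Around the 10 genes, 117 of 123 listed genes of 8 macrophage gene groups were measured, the 10 genes themselves left out. Against PBS at 12 weeks limma called 3 higher and 32 lower under jak1i (median −0.70, against −0.03 over all genes), where 13.4% of all genes were called, 6.85% higher and 6.51% lower. Under jak3i it called 11 higher and 16 lower (median −0.17, against −0.03), where 17.3% of all genes were called, 10% higher and 7.28% lower, and the share of list genes called higher was near that of all genes. Against PBS at 6 weeks, 6-week skin had 0 higher and 5 lower under jak1i (1.36% of all genes called) and 2 higher and 5 lower under jak3i (1.94%). From the start of the arm, 6 were higher and 21 lower at 6 weeks of jak1i (12.4%), 9 and 20 at 12 weeks (16.3%) and 2 and 0 at 24 weeks (1.19%). Under jak3i they were 2 and 14 (3.15%), 6 and 6 (10.3%) and 0 and 0 (0.11%). The calls under jak1i, 35 in all, came to 8 without the third PBS array at 12 weeks, to 20 and 14 without the first and the third jak1i array, to 1 with PBS at 6 weeks as the control and to 0 with the muscle list as covariate. Under jak3i, with 27 in all, they came to 11 and 16 without the first and the second jak3i array, to 15 and 12 without the first and the third PBS array, to 7 against PBS at 6 weeks and to 0 with the covariate. With the covariate 0 of all genes were called in either arm, while the list medians were −1.21 under jak1i and −0.73 under jak3i. Nothing is therefore read about the list genes from these 0 calls. Against PBS at 6 weeks all 35 and all 27 genes kept their sign, and 1 of the 35 (Cd209c) and 3 of the 27 (Cd209c, Cxcl16 and Scarb1) passed, where 0.0824% and 2.3% of all genes were called. The lists were put together with earlier results of these arrays known.

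In the lists that follow, rose and fell mean called higher or lower than PBS skin at 12 weeks, not a change over time. Of all genes, 6.51% were called lower under jak1i and 7.28% under jak3i, and no list was tested as a set. Among Fc receptors 3 of 9 fell and 0 rose under jak1i (median −1.04), and 2 fell and 0 rose under jak3i (median −0.41). Fcgr4, an activating receptor for IgG, fell, with −3.26 (SE 0.59, adjusted p = 0.00195) under jak1i and −2.18 (adjusted p = 0.0166) under jak3i, and differed from PBS at 6 weeks by −1.83 and −0.76 (adjusted p = 0.14 and 0.444). The inhibitory receptor Fcgr2b (−1.24, adjusted p = 0.0656), Fcgr3 (−1.38, adjusted p = 0.0639) and the Fc receptor signalling chain Fcer1g (−1.04, adjusted p = 0.104) did not pass under jak1i. Among leukocyte integrins 6 of 10 fell under jak1i and 3 under jak3i, with medians of −1.09 and −0.89 and 0 rises. Vcam1 had the largest called difference of this list, −2.12 (adjusted p = 0.0226) under jak1i, and differed by −1.18 (adjusted p = 0.167) under jak3i. Itgb2, the partner chain of Itgam, fell by 1.93 (adjusted p = 0.00725) under jak1i and differed by −1.20 (adjusted p = 0.0567) under jak3i. The jak1i difference of Itgb2 from PBS at 6 weeks was −1.08 (adjusted p = 0.21). Itgal, an integrin chain of lymphocytes, fell in both arms, with −1.74 (adjusted p = 0.00361) and −1.51 (adjusted p = 0.00735).

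In the classically activated group 7 of 18 fell under jak1i and 4 under jak3i (medians −1.09 and −0.52, 0 rises). Of all genes, 6.51% were called lower under jak1i and 7.28% under jak3i, and nothing is read from counts near these shares. Acod1, which makes itaconate in activated macrophages, fell, with −2.64 (adjusted p = 0.00627) and −1.73 (adjusted p = 0.0431), and the costimulatory receptor gene Cd40 fell, with −1.44 (adjusted p = 0.0151) and −1.14 (adjusted p = 0.0376). The chemokine gene Ccl2 fell by 2.47 (adjusted p = 0.0286) under jak1i and differed by −1.92 (adjusted p = 0.069) under jak3i. Of pan-macrophage and monocyte genes 7 of 18 fell under jak1i and 2 under jak3i (medians −1.03 and −0.28, 0 rises). They included Aif1 (−2.32, adjusted p = 0.0065) and the chemokine receptor gene of inflammatory monocytes Ccr2 (−2.23, adjusted p = 0.0263) under jak1i. Adgre1 (−0.80, adjusted p = 0.222) and Cd68 (−0.88, adjusted p = 0.236), of the same list, were also lower under jak1i but did not pass. Acod1 differed from PBS at 6 weeks by −1.76 (adjusted p = 0.149) and −0.84 (adjusted p = 0.38), and Aif1 under jak1i by −1.41 (adjusted p = 0.181).

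C-type lectins were called both higher and lower in both arms, scavenger receptors only under jak3i. Of all genes, 13.4% were called under jak1i and 17.3% under jak3i, so nothing is read from the counts of these lists. Of 16 C-type lectins 2 rose and 1 fell under jak1i (median 0.06), and 6 rose and 1 fell under jak3i (median 0.51). The gene that fell in both was Clec7a, the receptor Dectin-1 for fungal glucans, with −3.79 (adjusted p = 0.00423) under jak1i and −2.86 (adjusted p = 0.0173) under jak3i, and the rises were Cd209 genes. Of 17 scavenger receptors 0 rose and 2 fell under jak1i (median −0.13), and 2 rose and 2 fell under jak3i (median 0.34). Olr1, the receptor for oxidised lipoproteins, fell, with −2.70 (adjusted p = 0.0154) and −2.98 (adjusted p = 0.00883), and Cxcl16, a chemokine that is also a scavenger receptor for oxidised lipoproteins, with −1.45 (adjusted p = 0.00402) and −1.55 (adjusted p = 0.00258). The lipoprotein receptor Scarb1 (1.23, adjusted p = 0.00411) and Scara3 (1.05, adjusted p = 0.0291) rose under jak3i. Olr1 differed from PBS at 6 weeks by −1.11 (adjusted p = 0.424) and −1.39 (adjusted p = 0.225).

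In the chitinase-like and alternatively activated group 1 of 19 rose and 3 fell under jak1i (median −0.06), and 3 rose and 1 fell under jak3i (median −0.04). Of all genes, 6.85% were called higher and 6.51% lower under jak1i, and 10% and 7.28% under jak3i. Nothing is read from counts near these shares. Pdcd1lg2 had the largest called difference of this group and fell in both arms, with −2.78 (adjusted p = 0.0173) under jak1i and −2.17 (adjusted p = 0.0456) under jak3i. Gas6, a bridging ligand for uptake of dead cells, rose by 1.16 (adjusted p = 0.0331) and 1.48 (adjusted p = 0.00971). With the muscle list as covariate its jak1i difference was 0.06. Il4ra, a receptor chain for the cytokine Il4 (−1.34, adjusted p = 0.0071), and Chil1, a chitinase-like relative of Chil3 (−2.26, adjusted p = 0.0454), fell under jak1i. Retnla, a further gene of that state, differed by 0.35 (adjusted p = 0.836), and Arg1 by −0.92 (adjusted p = 0.339). In the colony-stimulating factor axis 3 of 12 fell under jak1i and 1 under jak3i (medians −0.48 and −0.17, 0 rises). The 3 were the granulocyte factor receptor Csf3r (−1.07, adjusted p = 0.0145), the transcription factor Spi1, known as PU.1 (−0.75, adjusted p = 0.0332), and Csf2 (−0.45, adjusted p = 0.0483). Csf3r differed from PBS at 6 weeks under jak1i by −0.54 (adjusted p = 0.307) and Spi1 by −0.31 (adjusted p = 0.513). Csf1, the other ligand of Csf1r, differed by −0.29 (adjusted p = 0.279) under jak1i and by 0.05 (adjusted p = 0.855) under jak3i.

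Lists of other cell types were read in the same arrays at 12 weeks, and no list was tested. The T and NK cell list (12 genes, Gzma highest and Ifng lowest) was at 0.59 to 1.40 in PBS at 12 weeks, at −1.12 to −0.57 under jak1i and at −1.50 to −0.93 under jak3i. The hair shaft list (11 genes, Krtap8-1 highest and Krt33b lowest) was at 1.04 to 2.73, −2.99 to −1.05 and −4.24 to −1.13. The fat cell list (6 genes, Fabp4 highest and Lep lowest) was at −1.18 to 0.75, 0.49 to 1.52 and 0.16 to 2.03, and the mast cell list (7 genes, Cpa3 highest and Tpsab1 lowest) at −0.59 to 0.69, −0.14 to 0.84 and 0.64 to 1.52. Dendritic cell genes (8, Itgae highest and Xcr1 lowest) were at 0.05 to 0.61, −0.45 to −0.20 and −0.39 to −0.19. The fibroblast list (7 genes, Col3a1 highest and Thy1 lowest) was at −0.38 to 0.45, −0.15 to 0.38 and 0.40 to 0.75, and the lymphatic endothelial list (5 genes, Pdpn highest and Prox1 lowest) at −0.16 to 0.33, −0.19 to 0.19 and 0.22 to 0.56. The T and NK cell, hair shaft and dendritic cell lists were apart from PBS in both arms. The fat cell, mast cell, fibroblast and lymphatic lists overlapped PBS in both arms. Their part in the values of the 10 genes was not tested.

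**Figure D5:**
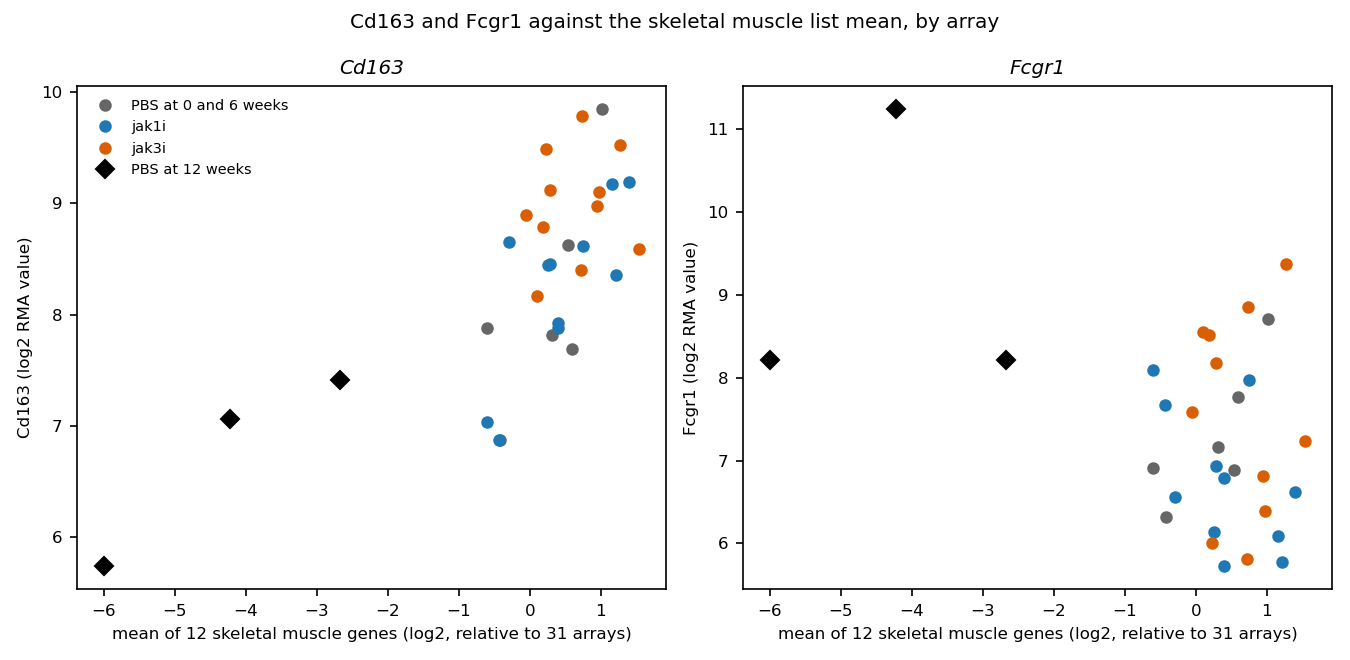
Log2 RMA value of Cd163 (left) and Fcgr1 (right) against the mean of 12 skeletal muscle genes relative to all arrays (horizontal axis, log2). Each point is an array, and diamonds are PBS at 12 weeks. The 3 diamonds lie between −5.99 and −2.67 on the muscle axis, and the other arrays lie between −0.60 and 1.54.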

How the data were processed

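Skin RNA of C3H/HeJ mice was measured on 31 Affymetrix 3′ arrays. RNA came from Qiagen miRNeasy with DNase on the column, and biotin-labelled targets from the 3′ IVT Express kit, per the labels' protocols. The authors deposited log2 RMA values, per the submitters' processing notes, which name no RMA version. RMA corrects background, equalises array distributions and summarises probes, so a change in total RNA is not visible. Values ran from 2.59 to 14.69, array medians from 6.05 to 6.24, correlations between arrays from 0.935 to 0.995, with 0 identical pairs and 0 missing values. Arrays give no read depth, and their number limits the precision. No batch of scanning was tested, and detection calls were not used here.

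Of 45101 probe sets, 34945 carried 1 gene symbol in the platform table, and per gene the one of highest mean was kept (18193 genes). Treatment time was read as weeks from the W in the titles. One fit of 11 group means (limma 3.58.1 in R 4.3.3, 20 residual degrees of freedom, prior 2.50) gave differences, standard errors and p-values adjusted by Benjamini-Hochberg over all genes, called under 0.05. Of 20 contrasts, the 10 of inhibitor against PBS or against its own start count as used in choosing the genes, and the other 10 were tested. p-values measure the spread between these arrays. The script was tested on simulated data.

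The 10 genes and all gene lists were chosen with earlier results of these data known. Named besides them were, per macrophage list, genes from the up to 4 of largest difference among those called at 12 weeks. The largest was always named, but not all of the others were. The brightest and dimmest gene of each cell type list and the 3 most correlated genes of Cd163, Fcgr1, Il34 and Chil3 were named too. A few more listed genes (Fcgr2b, Fcgr3, Fcer1g, Adgre1, Cd68, Retnla, Arg1, Csf1 and further Cd209 genes) were named after their values were seen. List levels are means of each gene's value minus its mean over the arrays. Promoters and gene positions are from RefSeq (GRCm38.p6). Alternatives were centring, leaving out dim genes (12825 kept, with all 10 members), all probe sets averaged, other probe sets, a trended variance, only the compared arrays, a replicate block, the muscle list as covariate, PBS of the other week, and leaving out each array. Of 15 contrasts with 3 pairs, same-numbered arrays deviated together in 1 (r over 0.1 in every pair, jak3i against PBS at 12 weeks), so the numbers otherwise only name arrays.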

Additional observations from a re-analysis of the deposited data

Results flagged for a closer look

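Several genes moved one way in every array of PBS skin and the opposite way in every array of an inhibitor arm over the same weeks, relative to 0 weeks. The difference between the arms was not tested, and the inhibitor contrasts helped to choose the genes. Chil3 from 0 to 6 weeks differed by 2.21 in PBS, by −1.69 under jak1i and by −3.07 under jak3i, and from 0 to 12 weeks by 2.69, −1.78 and −2.70. Cd163 from 0 to 12 weeks differed by −1.37 in PBS and by 1.66 under jak1i. Over the same weeks Fcgr1 differed by 2.24 in PBS and by −1.24 under jak1i, Msr1 by 0.98 and −1.30, and Itgam by 0.93 and −1.05. The muscle list was far lower in PBS at 12 weeks than elsewhere, but it also varied among the other arrays. With it as covariate the jak1i difference from 0 to 12 weeks was 1.02 for Cd163, −1.44 for Fcgr1 and −1.28 for Msr1. It was −1.135 for Itgam and −1.86 for Chil3. For Chil3 from 0 to 6 weeks it was −1.75 under jak1i and −3.09 under jak3i, and from 0 to 12 weeks of jak3i −2.74. The PBS differences are not given with the covariate, since low muscle values and PBS at 12 weeks cannot be told apart. With it the jak1i difference from PBS at 12 weeks turned from 2.20 to −0.70 for Cd163. Its opposite movement is therefore not shown to hold under the covariate. That difference stayed negative for Fcgr1 (−3.86), Msr1 (−1.92), Itgam (−1.83) and Chil3 (−3.55). Without the third jak1i array at 0 weeks the jak1i difference of Chil3 was −0.66 at 6 weeks and −0.75 at 12 weeks. Without the third PBS array of the week, Chil3 in PBS differed by 1.29 at 6 weeks and by 1.73 at 12 weeks, and at 12 weeks Fcgr1 by 1.23 and Msr1 by 0.40. Without the first PBS array at 12 weeks Cd163 in PBS differed by −0.87.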

How the results depend on the processing

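Among the 10 tested comparisons, counts of called members stayed at 0 in every alternative run except that only the compared arrays gave 2 for jak3i against PBS at 0 weeks and the replicate block gave 1 for PBS from 0 to 12 weeks (0 to 0 with an array left out in each). Of all genes, the former called 6 and the latter 405. Called macrophage list genes moved more. For jak1i against PBS at 6 weeks (5 called) they were 2 after centring (161 of all genes) and 0 in only the compared arrays (20 of all genes). They were 42 against PBS at 12 weeks (2654 of all genes) and 1 to 10 with an array left out. For jak3i against PBS at 6 weeks (7) they were 2 in only the compared arrays (39 of all genes) and 36 against PBS at 12 weeks (2246 of all genes). They were 1 to 24 with an array left out, 24 being without the first PBS array. For jak1i against PBS at 12 weeks (35) they were 0 with the muscle covariate (0 of all genes), 1 against PBS at 6 weeks (15 of all genes), and 8 to 39. For jak3i at 12 weeks (27) they were 0 (0 of all genes), 7 (419 of all genes) and 11 to 30. For jak1i from 0 to 12 weeks (29) they were 50 in only the compared arrays (3082 of all genes). With the muscle covariate they were 13 (1253 of all genes), and 13 to 24 with an array left out. For jak3i from 0 to 12 weeks (12) they were 4 with the muscle covariate (654 of all genes) and 0 to 15. For PBS from 0 to 12 weeks (0) the replicate block gave 1, and leaving out arrays gave 0 to 0. Cd163 at 12 weeks against PBS reversed with the muscle covariate, to −0.70 under jak1i and −0.62 under jak3i. Under the same covariate the sign also turned for Cd209e in both arms (−0.05 and −0.32) and, under jak3i, for Mrc1 (−1.26), Stab1 (−0.06) and Csf1r (−0.76). In all, 14 of 100 member differences changed sign with it, 6 of 40 against PBS of the other week and 36 of 580 with an array left out. With 12-week PBS alone low in muscle genes, the covariate and that group cannot be told apart. Of the 100 member differences against which each setting was set, 100 moved by less than 1 residual SD after centring, 100 with the replicate block and 86 with the muscle covariate, and of 580 with an array left out 564 did. Against PBS of the other week 28 of 40 did (largest shift 1.63), and with another probe set 47 of 60 (largest shift 2.03). The cause of the moves was not tested. The replicate block changed no other count by over 1.5 times. Groups of 2 arrays at 24 weeks limit the precision there.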
